A study of Mus musculus with 6 samples.

Results

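The bulge is the part of the hair follicle (HF) that houses its stem cells, and 10 of its markers and regulators were followed here in Med1 KO and CON keratinocytes. These were Cd34, Cd200, Nfatc1, Lhx2, Sox9, Runx1, Foxc1, Tbx1, Npnt and Aldh3a1. Their probes were found by name, as every probe whose annotated gene symbol was 1 of the 10, and the 10 genes were themselves chosen with earlier results of these data known. Probes were found for 9 of the 10 genes, and 8 of the 9 were bright enough to test, out of 16593 named genes on the array and 7461 tested genes. Tbx1, a T-box transcription factor that in mouse supports stem cell self-renewal, had no probe and was not analysed here.

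KO mice carried MED1 fl/fl alleles and Cre driven by the keratin 14 (K14) promoter, and CON mice carried MED1 fl/fl alleles without Cre. Both groups were C57BL6 at 10 wk of age, and keratinocytes were isolated from the epidermis with trypsin and profiled on a 1-colour Illumina beadchip, with 3 KO and 3 CON arrays. K14-driven Cre acts in the keratinocytes of the interfollicular epidermis as well as in those of the HF, so the deletion was not specific to the bulge. Each group held cells from 2 mice, but which of the arrays came from 1 mouse is not given. The 3 arrays of a group therefore cannot all stand for separate mice. The p-values measure the spread between arrays and not that between mice, and some of it may be technical. At this age, according to the study, follicles of CON skin rested (telogen) while KO skin had moved towards growth (anagen), so genotype and hair cycle phase cannot be told apart in these samples.

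Bulge stem cells rest for most of the hair cycle and divide when a new growth phase starts. Quiescence is favoured by bone morphogenetic protein (BMP) signaling, which in mouse maintains the transcription factor Nfatc1. Lhx2, Sox9, Tbx1 and Foxc1 maintain the identity or the quiescence of these cells, while Runx1 favours their activation. Cd34 is the classical surface marker of the mouse bulge, and Cd200 marks bulge cells in both human and mouse. The RNA came from bulk epidermal cells, and these genes can also be expressed outside the bulge. Fewer bulge cells, less RNA in each of them and a change in other keratinocytes therefore cannot be told apart.

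The labels were first checked with the targeted gene. Med1, the Mediator subunit that was deleted, had intensities of 131.3, 140.1 and 162.9 on the KO arrays, against 256.3, 197.9 and 177.3 on the CON arrays. The change was -0.96 ± 0.15 (log2, SE) or 1.95-fold lower in KO (limma, adjusted p = 0.00179), and -0.47 without background correction. Another 3 Med1 probes were detected on no array, and whether any of the 4 lies in the deleted exons was not determined. Median intensities were 105.7 to 117.3 per array, and 38.4% to 41.4% of probes were detected per array. Arrays of 1 group correlated at r of 0.989 to 0.993 across probes, and arrays of different groups at 0.965 to 0.968.

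Among the 8 bulge genes tested, 3 fell in KO keratinocytes, namely Cd34, Nfatc1 and Cd200. This was 37.5% of those tested, while 14.7% of all tested genes fell and 14.1% rose (limma, adjusted p below 0.05). None of the 8 rose by this test, where 1 of them, Foxc1, was higher at an unadjusted p below 0.05 and 0 were higher by the methods' t-test after Benjamini-Hochberg adjustment. Lhx2, Runx1, Foxc1, Sox9 and Aldh3a1 did not pass the threshold. The count of 3 includes Cd200, whose call ended under 15 of 18 alternative settings. By the methods' t-test after Benjamini-Hochberg adjustment, 2 of the 8 fell. At the study's own cut, an unadjusted p below 0.005, 0 of the 8 passed, while 573 of all tested genes fell and 605 rose. The median change of the 8 genes was -0.38 on the log2 scale, against -0.0015 over all tested genes, and 6 changes were below 0. Every KO array lay below every CON array for 5 genes (Cd34, Nfatc1, Cd200, Lhx2 and Aldh3a1) and above every CON array for 1 gene (Foxc1). Over all tested genes, KO arrays lay wholly below CON arrays for 22.5% and wholly above for 22.7%.

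**Figure D1:**
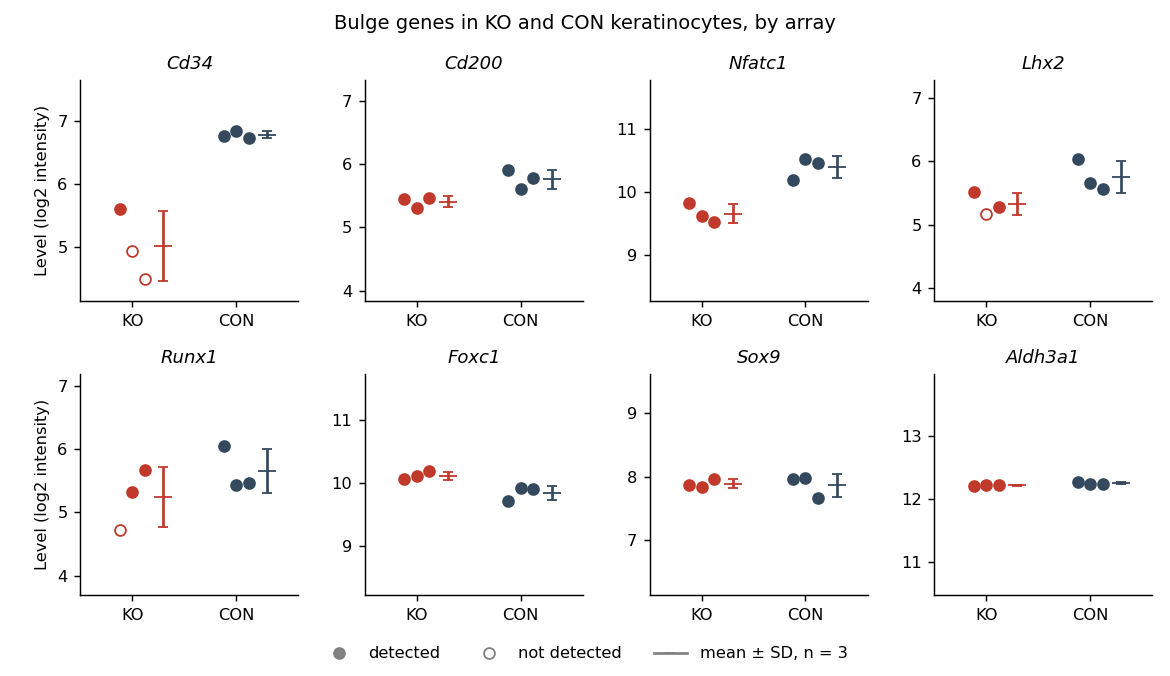
Normalized log2 intensity (y axis, different ranges of equal span) of the 8 bulge genes tested, on each KO array (left in each panel) and each CON array (right), with bars at the group means and error bars of 1 SD (n = 3). Cd34 and Nfatc1 stand clearly apart between the groups, Sox9 and Runx1 overlap, and the Aldh3a1 values are nearly equal on all 6 arrays.

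Cd34, a sialomucin on the surface of mouse bulge cells, decreased to near background. Its single probe had intensities of 123.6, 118.3 and 106.9 on the KO arrays, against 221.4, 200.3 and 180 on the CON arrays. The probe was detected on all 3 CON arrays but on 1 of 3 KO arrays, so the fold below is set against a KO level that 2 of 3 arrays did not resolve from background. The CON arrays alone were enough for Cd34 to be tested, so the filter had a part in the count of 3 genes that fell. On the normalized log2 scale, Cd34 averaged 5.02 ± 0.55 in KO and 6.78 ± 0.06 in CON (SD, n = 3 each). The change was -1.76 ± 0.24 (log2, SE; 95% interval -2.30 to -1.22), or 3.39-fold lower in KO, with an adjusted p of 0.00093 (limma), and it ranked 33 from the lowest among 7461 genes. The size depends on how background is treated, as the change was -1.10 with an offset of 50 and -0.72 without background correction, both past the threshold. Cd34 is also among the genes that the study itself names from these samples.

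Cd200, an immunoglobulin-family surface protein that restrains myeloid cells, fell by a small margin. The tested probe had intensities of 120, 127.1 and 134.2 on the KO arrays, against 161.6, 134.6 and 134.6 on the CON arrays, and all 6 arrays detected it. The raw intensities of KO replicate 3 and of CON replicates 2 and 3 were almost equal, and the groups separated narrowly after normalization, at 5.40 ± 0.09 in KO and 5.76 ± 0.15 in CON (log2, SD, n = 3 each). The change was -0.36 ± 0.11 (log2, SE; 95% interval -0.61 to -0.10), or 1.28-fold lower in KO, with an adjusted p of 0.0440 (limma). This call ended under 15 of 18 alternative settings, including the removal of any array but CON replicate 2, with adjusted p of 0.0831, 0.145 and 0.0795 without KO replicates 1, 2 and 3 and of 0.114 and 0.0993 without CON replicates 1 and 3. Without background correction the change was -0.13 (adjusted p = 0.188). A second Cd200 probe, with intensities of 104.7, 101.6 and 103.3 on the KO arrays and 114.1, 108.3 and 98.2 on the CON arrays, was detected on no array.

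The bases before the transcription start of both surface marker genes are shown because these genes are the markers by which bulge cells are recognised. RefSeq (GRCm38.p6) windows were matched for 7 of the 10 genes, and the 250 bases before the start are printed 5′ to 3′ on the strand of the gene, with motif matches in capitals.
Cd34, chr1:194938571-194938820, plus strand: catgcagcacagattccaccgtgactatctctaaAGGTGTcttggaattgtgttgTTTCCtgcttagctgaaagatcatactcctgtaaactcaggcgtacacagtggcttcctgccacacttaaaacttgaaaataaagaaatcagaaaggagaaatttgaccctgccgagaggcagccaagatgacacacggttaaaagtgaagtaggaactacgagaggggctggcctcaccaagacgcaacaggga
Cd200, chr16:45409054-45409303, minus strand: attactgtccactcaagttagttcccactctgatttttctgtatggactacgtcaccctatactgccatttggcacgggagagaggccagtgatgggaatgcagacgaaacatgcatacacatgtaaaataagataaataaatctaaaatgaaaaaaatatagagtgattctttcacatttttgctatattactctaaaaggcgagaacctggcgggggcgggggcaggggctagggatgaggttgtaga
Short core motifs of the regulator families were searched on both strands, namely GGAAA for NFAT, TGTGGT for RUNX, ATTGTT for SOX, TGTTTA for FOX, TAATTA for LHX and AGGTGT for T-box factors. The Cd34 window held 1 NFAT match, printed as its reverse complement with its first base 195 bases before the start, and 1 T-box match that begins 216 bases before the start. The Cd200 window held no match to any of the 6 motifs. The NFAT letters also stood in windows of Lhx2, Foxc1 and Runx1, which did not pass the threshold, and of Npnt, which was not tested. Among 32851 windows of the same length, 55.6% held the NFAT letters and 11.8% the T-box letters, while the RUNX, SOX, FOX and LHX letters stood in 14%, 9.42%, 12% and 4.84%. A match to such short letters is a description of the window and does not show binding.

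Nfatc1, the calcineurin-dependent transcription factor that in mouse keeps bulge stem cells quiescent, decreased at all of its detected probes. The array has 6 Nfatc1 probes, of which 3 are annotated to transcript NM_198429 and 3 to transcript NM_016791. The first NM_198429 probe, which stands for the gene in the counts above, had intensities of 802.1, 903.9 and 919.3 on the KO arrays, against 1485.2, 1497.7 and 1325.6 on the CON arrays. The groups did not overlap, and the change was -0.74 ± 0.13 (log2, SE; 95% interval -1.02 to -0.45), or 1.67-fold lower in KO (limma, adjusted p = 0.00319). The second NM_198429 probe had intensities of 656.2, 777.7 and 784.8 in KO, against 1620, 1286 and 1158.5 in CON, and changed by -0.91 ± 0.10 (adjusted p = 0.000297). The third had 179.5, 204.7 and 206.7 in KO, against 299.7, 324.8 and 261.8 in CON, and changed by -0.82 ± 0.13 (adjusted p = 0.00257), or by -0.53 without background correction. The 3 probes thus gave decreases of 1.67-, 1.88- and 1.77-fold, and each stayed past the threshold under all 18 alternative settings.

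The probes of NM_016791 were near background and were not tested. One had intensities of 105.8, 107.3 and 110 on the KO arrays, against 130, 124.3 and 129.1 on the CON arrays, and was detected on CON replicates 1 and 3 alone. The other two, at 98 to 114.3 on the KO arrays and 96.7 to 119.5 on the CON arrays, were detected on no array. The decrease of Nfatc1 was therefore measured through the NM_198429 probes, and no difference between the transcripts was tested.

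**Figure D2:**
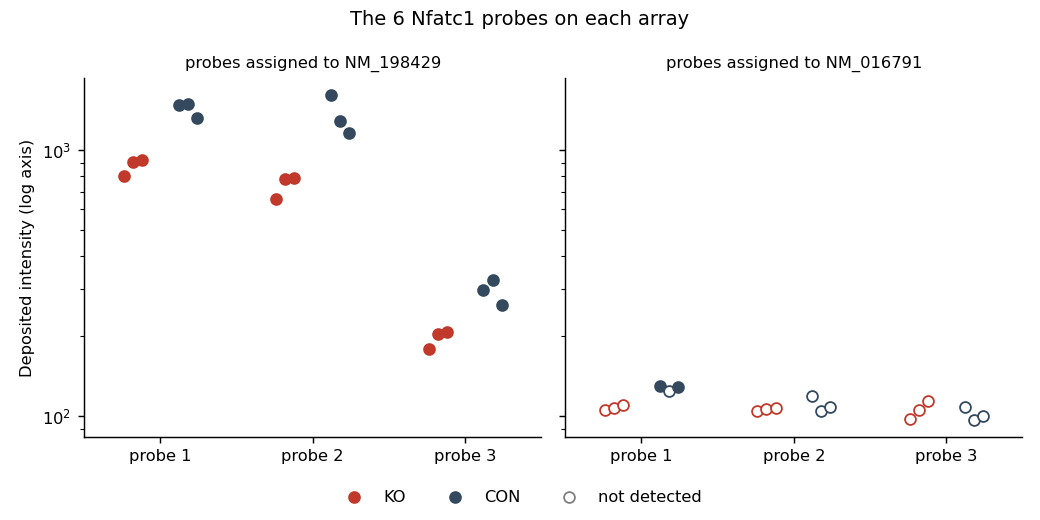
Deposited intensity (log10 y axis) of the 6 Nfatc1 probes on each KO array (left of each pair) and CON array (right), grouped by the transcript to which each probe is annotated, with filled points for detected and open points for undetected probes. The 3 NM_198429 probes were lower on every KO array than on every CON array, and the NM_016791 probes sat close to the array medians of 105.7 to 117.3.

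Lhx2, a LIM-homeodomain factor that maintains HF stem cells, was dim and did not pass the threshold. Its probe had intensities of 121.4, 123.8 and 127.8 on the KO arrays, against 169.1, 136.8 and 128.4 on the CON arrays, and KO replicate 2 did not detect it. The groups did not overlap, with KO lower, and the change was -0.44 ± 0.15 (log2, SE; 95% interval -0.78 to -0.10; limma, adjusted p = 0.0602). The threshold was passed under 3 alternatives, namely array weights (adjusted p = 0.0494), the replicate block (0.0283) and the removal of CON replicate 3 (0.0485), and missed under the others that tested it, while requiring detection on all 6 arrays left Lhx2 untested.

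Runx1, a runt-domain factor that promotes activation of bulge cells, showed overlapping groups. Intensities were 106.7, 127.5 and 141.6 on the KO arrays and 169.5, 129.2 and 125.3 on the CON arrays. KO replicate 1 did not detect the probe and CON replicate 1 was the highest of the 6. The change was -0.41 ± 0.25 (log2, SE; 95% interval -0.98 to 0.15; limma, adjusted p = 0.260), so neither no change nor a decrease of the size of that of Lhx2 lay outside the interval. The change was -0.16 without KO replicate 1 and -0.63 without KO replicate 3.

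Foxc1, a forkhead factor that in mouse holds activated bulge cells back from further division, was the one gene of the 8 with higher values on every KO array. After normalization it stood at 10.06, 10.11 and 10.19 in KO, against 9.71, 9.91 and 9.90 in CON (log2). The deposited intensities of 929, 1237.8 and 1394.5 in KO and 1085.7, 1015.8 and 931.1 in CON overlap, so the separation appeared only after normalization. The change was 0.28 ± 0.10 (log2, SE; 95% interval 0.05 to 0.51), with an adjusted p of 0.0756 (limma). It passed the threshold under 4 alternatives, with adjusted p of 0.0433 with an offset of 50, 0.0209 without background correction, 0.0208 on the normalized values of the authors and 0.0222 with a trended, robust prior.

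Sox9, the HMG-box factor needed to form the bulge, showed no detectable change. Intensities were 267.4, 323.4 and 364.7 on the KO arrays and 389.6, 334.4 and 263.5 on the CON arrays, and the groups overlapped. The change was 0.03 ± 0.12 (log2, SE; 95% interval -0.24 to 0.29; limma, adjusted p = 0.898), which leaves room for a change of either sign. It was -0.012 without KO replicate 3 and -0.079 without CON replicate 3.

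Aldh3a1, an aldehyde dehydrogenase that oxidises reactive aldehydes, was detected on all 6 arrays and showed no detectable change. It had intensities of 4192.5, 5125.1 and 5438.9 on the KO arrays and 5659.6, 4602.8 and 4288.6 on the CON arrays. After normalization every array lay between 12.20 and 12.26, and the change was -0.03 ± 0.09 (log2, SE; 95% interval -0.23 to 0.17; limma, adjusted p = 0.829). All KO arrays were below all CON arrays by these small amounts, and with median scaling the change had the other sign (0.072).

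Npnt, nephronectin, a matrix protein that bulge cells lay down for the arrector pili muscle in mouse, was detected on no array by either of its 2 probes. The probe of NM_033525 had intensities of 101.4, 103.5 and 100.1 in KO and 103.3, 103.5 and 100.4 in CON. The probe of NM_001029836 had 104.4, 112.5 and 101.5 in KO and 123.6, 106.4 and 110.4 in CON. No change of Npnt could be measured at these levels.

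The 3 genes that fell were next set beside 31 other genes known from the bulge, of which 23 were bright enough to test. In this list 10 genes (43.5%) fell and 2 (8.7%) rose, with a median change of -0.37. Over all tested genes, 14.7% fell and 14.1% rose. The list was likewise chosen with earlier results of these data known, and the study names Ccn2 and Col6a1 from these same samples, so the count is a description and no independent evidence of direction. Krt24 and Angptl7, both among the 10, were detected on no KO array and passed the filter through the CON arrays alone. Their CON intensities were 343 to 683.4 for Krt24 and 164.7 to 185.2 for Angptl7. Ccn2, a matricellular TGFβ target also called Ctgf, had intensities of 477.1, 608.5 and 674.6 in KO, against 5634.6, 4574.2 and 3983.6 in CON, and changed by -3.21 ± 0.09 (log2, SE; limma, adjusted p = 9.27e-07). Col6a1, a collagen VI chain, had intensities of 223.8, 281.3 and 265.7 in KO, against 1084.3, 898.1 and 724.9 in CON, and changed by -2.18 ± 0.11 (adjusted p = 6.95e-06). For both genes the lowest CON array was far above the highest KO array. In CON skin the study saw both proteins in isthmus and interfollicular epidermis as well as in the bulge, so these genes are not specific to it. The keratin Krt15 had intensities of 4027.5, 4751.3 and 4851 in KO, against 12671.4, 11106.2 and 10529.1 in CON, a change of -1.36 ± 0.09 (adjusted p = 2.86e-05). The KRT15 antibody of the study marked HF stem cells but also keratinocytes of the isthmus and interfollicular epidermis. Krt24, another keratin of the outer root sheath and bulge, was detected on no KO array and was at least 9.84-fold lower in KO on the background-corrected scale (adjusted p = 1.59e-05). That bound rests on the background correction, as the change of Krt24 was -2.71 with an offset of 50 and -2.03 without background correction (log2).

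The IGF-binding protein Igfbp5 changed by -1.71 ± 0.12 (log2, SE; limma, adjusted p = 3.3e-05), or by -0.90 without background correction, and the chemokine Cxcl14 by -1.14 ± 0.11 (adjusted p = 0.000157). The stem cell receptor Lgr5, which binds R-spondins and marks bulge and hair germ, had intensities of 123.1, 144.9 and 136.2 in KO, against 230.7, 153.3 and 184.3 in CON, and changed by -0.93 ± 0.20 (adjusted p = 0.0104), or by -0.42 without background correction. The 2 genes that rose, named after their values were seen, were the matrix glycoprotein Tnc (0.90 ± 0.11) and the Wnt receptor Fzd3 (0.58 ± 0.19, adjusted p = 0.0495), which was detected on all 3 KO arrays and 1 of 3 CON arrays. Without KO replicate 1, KO replicate 3, CON replicate 1 or CON replicate 3, 1 gene of the list rose.

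**Figure D3:**
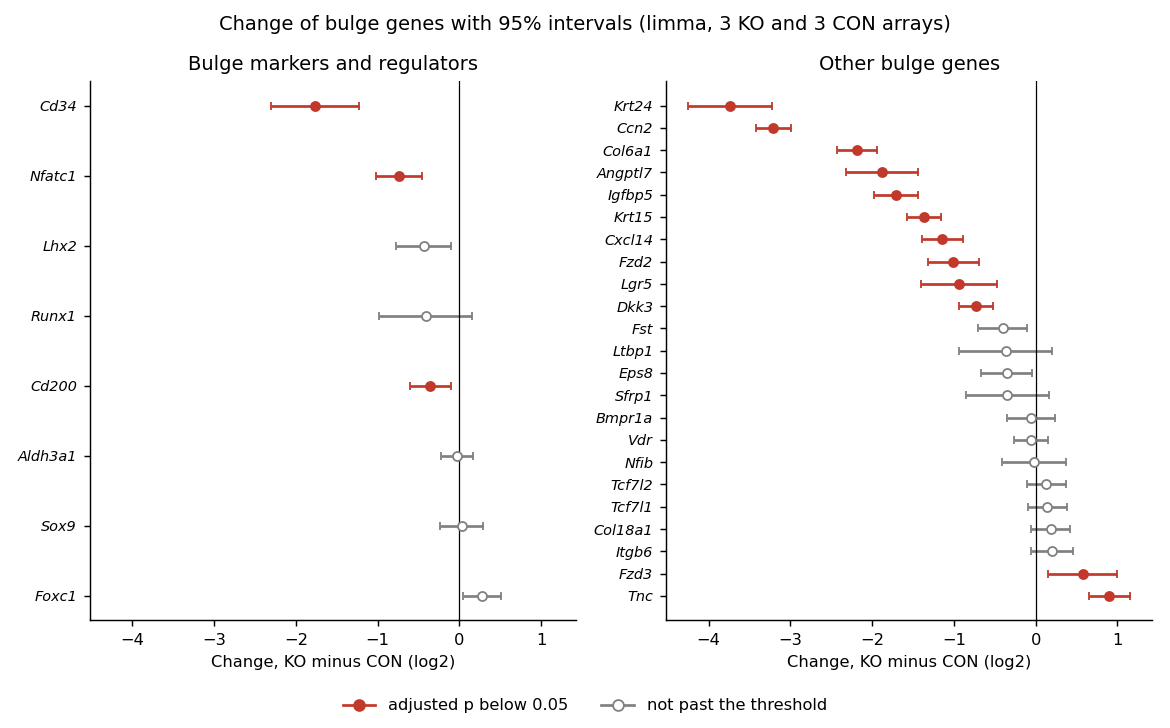
Change in log2 intensity (KO minus CON, x axis) with 95% intervals for the 8 bulge markers and regulators (left) and the 23 other bulge genes tested (right), with filled points past an adjusted p of 0.05. Both panels hold more filled points below 0 than above it, and the intervals of Sox9, Runx1 and Aldh3a1 include 0.

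Partners of the bulge transcription factors were followed in a list of 29 genes that includes calcineurin subunits, LIM-domain cofactors and paralogs. Of 15 tested, 6 (40%) fell and none rose (0 also at an unadjusted p below 0.05 and by the methods' t-test), with a median change of -0.15. The shares over all tested genes were 14.7% and 14.1%. Nfatc4, a paralog of Nfatc1, was detected on no KO array and was at least 1.59-fold lower in KO on the background-corrected scale (limma, adjusted p = 0.000352), with a change of -0.66 with an offset of 50 and -0.41 without background correction (log2). Sox5, a paralog of Sox9 in the SOX family, was likewise detected on no KO array and was at least 1.37-fold lower on that scale (adjusted p = 0.00321), with a change of -0.44 with an offset of 50 and -0.26 without background correction. Nfatc4 and Sox5 passed the filter through the CON arrays alone, so the filter had a part in the count of 6. Ldb1, the cofactor through which LIM-homeodomain proteins such as Lhx2 act, changed by -0.39 ± 0.10 (log2, SE; adjusted p = 0.0168). This call ended without KO replicate 2 (0.0599), without KO replicate 3 (0.0629) and with median scaling (0.249).

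Of 12 tested genes of BMP signaling and quiescence, 4 (33.3%) fell and 1 (8.33%) rose, with a median change of -0.15. By the methods' t-test after Benjamini-Hochberg adjustment, 2 fell and 0 rose. Of all tested genes, 14.7% fell and 14.1% rose. The ligand Bmp4 had intensities of 386.4, 498.4 and 495.4 in KO, against 1189.7, 925.9 and 837.6 in CON, a change of -1.21 ± 0.09 (log2, SE; limma, adjusted p = 5.27e-05). Cdkn1c, the cell cycle inhibitor p57, fell by 0.70 on the log2 scale (adjusted p = 0.004), or by 0.35 without background correction, while the ligand Bmp7 rose by 0.59 (adjusted p = 0.0108). Cdkn1b changed by -0.50 (limma, adjusted p = 0.0394), a call that ended under 9 of 18 alternative settings. Among 9 tested genes of the hair germ and of growing follicles, 4 (44.4%) fell and 1 (11.1%) rose, with a median change of -0.19. Those that fell include Lgr5 and the keratins Krt35 (-0.92, adjusted p = 0.00169, and -0.50 without background correction) and Krt71 (-0.79, adjusted p = 0.00339). The one that rose was the epidermal transcription factor Ovol1 (0.997, adjusted p = 0.00014). Msx1, also among the 4 that fell, was detected on all 3 CON arrays but on 1 of 3 KO arrays. The filter therefore had a part in that count.

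Genes of the upper follicle, above the bulge, gave 1 increase and 1 decrease among 5 tested (20% each, against 14.1% and 14.7% of all tested genes). Krt79 rose by 0.38 (log2; limma, adjusted p = 0.0288) and Lrig1 changed by -0.40 (adjusted p = 0.0326). Summed levels were 43397 to 44050 on the KO arrays and 38145 to 40100 on the CON arrays over 8 listed genes, of which 3 were detected on no array. The brightest, Krt17, named after its value was seen, averaged 14.27 in KO and 14.16 in CON (log2; limma, adjusted p = 0.44). The calls of Krt79 and Lrig1 each ended without 1 of several arrays. For Krt79 the adjusted p was 0.0801 and 0.0980 without KO replicates 2 and 3, and 0.0778 and 0.0780 without CON replicates 1 and 3. For Lrig1 it was 0.0838, 0.0998 and 0.0651 without KO replicates 1, 2 and 3, and 0.0595 and 0.0844 without CON replicates 1 and 2.

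Other markers moved with the genotype as well. All 11 keratinocyte markers on the array were detected on every array, with summed levels of 94649 to 95748 in KO and 108308 to 113506 in CON. Against 14.7% and 14.1% of all tested genes, 4 of the 11 (36.4%) fell and 1 (9.09%) rose, with a median change of -0.31. Those that fell include the basal keratin Krt5 (-0.68 on the log2 scale; limma, adjusted p = 0.00137), the integrin Itgb4 (-0.62) and the hemidesmosomal collagen Col17a1 (-0.48), and the differentiation marker Ivl, involucrin, rose by 0.58 (adjusted p = 0.00389). The part of these keratinocyte changes in the bulge results was not tested. Cd34 is also expressed by endothelial cells, whose 9 markers summed to 222 to 232 in KO and 215 to 258 in CON, with 0 to 1 of the 9 detected per KO array and 0 to 2 per CON array, and Pecam1, Cdh5, Tie1 and Emcn were detected on none. Cd34 is expressed by dermal fibroblasts too. Of 9 fibroblast markers, 3 were detected on all arrays, with summed levels over the list of 401 to 489 in KO and 634 to 734 in CON. Dcn (-1.23 on the log2 scale) and Serpinf1 (-1.30) fell (-0.59 and -0.60 without background correction), and Fbln1 changed by -0.49 (adjusted p = 0.0413), a call that ended without any 1 array other than CON replicate 3 (adjusted p of 0.0510 to 0.128). Col1a1, Col1a2, Col3a1, Lum, Pdgfra and Pdgfrb were detected on no array. Whether fibroblast RNA has a part in the decrease of Cd34 was not tested.

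Melanocytes reside in the bulge and hair germ beside the stem cells. Levels of 6 of their markers summed to 380 to 402 in KO and 726 to 782 in CON. Of 4 tested, 3 (75%) fell and 0 rose, against 14.7% and 14.1% of all tested genes. The 3 were Dct (-1.18, limma, adjusted p = 9.52e-05), Pmel (-0.89) and Mlana (-0.65), with changes of -0.46 for Pmel and -0.26 for Mlana without background correction. Tyr and Mitf were detected on no array, and Tyrp1 on 1 of 3 KO and 2 of 3 CON arrays. Runx1 is also expressed by leukocytes, whose markers were detected for 7 of 10 listed genes on every array and summed to 4733 to 5312 in KO and 5326 to 6135 in CON, while Ptprc, Itgax and Tyrobp were detected on no array. The list did not move 1 way, as the antigen presentation gene Cd74 (-0.85) and Cd207 of Langerhans cells (-0.47) fell, while the T cell receptor genes Cd3d (0.54) and Cd3e (0.36) rose and the median change of the 7 genes was 0.27. The call of Cd3e ended without any 1 array other than CON replicate 3 (adjusted p of 0.0543 to 0.0972). Among smooth muscle markers Acta2 alone was detected (0.97, and 0.62 without background correction), with sums of 320 to 342 in KO and 213 to 233 in CON. The part of these cells in the bulge results was not tested.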

How the data were processed

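The authors deposited, for 25697 probes on each of 6 Illumina MouseRef-8 arrays, a linear intensity without normalization and a detection p-value, exported from GenomeStudio (the submitters' processing notes give version 2011.1). A second table holds intensity values that the authors normalized, and it served as an alternative only. Here neqc from limma 3.58.1 under R 4.3.3 inferred the background from detection p, added an offset of 16, applied quantile normalization and took log2. The offset pulls the changes of dim probes towards 0. Probes with a detection p below 0.01 on at least 3 of 6 arrays were tested (10386 probes), and a probe counts as detected on an array at that p.

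KO was compared with CON by lmFit and eBayes, two-sided, with no covariate, and p-values were adjusted by Benjamini-Hochberg over all tested probes (threshold 0.05). The model fit and the t-test were tested on simulated normalized values, while background correction, normalization and filtering were not. A gene with several tested probes takes the value of the brightest by mean over arrays. Where no array of 1 group detected a probe, the fold is a bound, set against the higher of the probe's own value and the lowest detected signal on each array. Summed levels add linear normalized values, 1 probe per gene, undetected genes included.

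Probes were named from the platform annotation (23978 with 1 symbol, 0 with several, 1719 unnamed here), and 23962 matched RefSeq genes of GRCm38.p6 by Entrez ID. The members and lists were chosen with earlier results of these data known. Named beside the members and Med1 are up to 6 other bulge genes and up to 4 genes of each other list with the smallest adjusted p past the threshold. The precision is limited by the number of arrays. The alternatives were other background corrections, scalings, filters and variance models, the authors' values, a replicate block, the methods' t-test (unadjusted, 0 of the 8 members passed its threshold of p below 0.005) and leaving out each array.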

Additional observations from a re-analysis of the deposited data

How the results depend on the processing

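Over the 18 alternatives, 170 values of the members and Med1 kept their direction and their side of the threshold, 15 lost the call (all of Cd200), 7 gained one (4 of Foxc1 and 3 of Lhx2) and 3 changed sign (1 of Aldh3a1 and 2 of Sox9). Aldh3a1 changed by 0.072 with median scaling, and Sox9 by -0.079 to 0.084 when 1 array was left out. Beside the values given for Cd200 above, its adjusted p was 0.097 with an offset of 50, 0.0519 with cyclic loess, 0.145 with median scaling, 0.188 on the authors' values, 0.0702 without a filter, 0.0557 with a detection p below 0.05, 0.141 with a trended, robust prior, 0.0512 with the replicate block and 0.0935 by the methods' t-test. Requiring detection on all 6 arrays left Cd34, Lhx2 and Runx1 untested. The count of members that rose was 1 (Foxc1) with an offset of 50, without background correction, on the authors' values and with a trended, robust prior. With median scaling, 610 genes rose and 678 fell over the whole array. The count of other bulge genes that rose was 1 without background correction, with median scaling, on the authors' values, under each of the 3 other filters, with array weights, with the replicate block and by the methods' t-test, and 1 to 2 when 1 array was left out. In the partner and signal lists together, 15 genes fell and 3 rose, but 8 fell with median scaling, and 9 fell and 1 rose by the methods' t-test. With 1 array left out, 8 to 13 fell, with 9 without KO replicate 1, 2 or 3 and 8 without CON replicate 1. The causes were not tested.

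Whether equal replicate numbers mark paired arrays is not given. The deviations of same-numbered arrays correlated at -0.0304, 0.0736 and -0.0534 across probes, which with 3 arrays per group cannot exclude pairing. With a replicate block, 925 genes rose and 953 fell, against 1053 and 1096 without it, and the 3 members that fell were Cd34, Nfatc1 and Lhx2. Dim probes limit these results, since Npnt was detected on no array and Cd34, Cd200, Lhx2 and Runx1 lay near background on the KO arrays. Cd200, Lhx2 and Runx1 were also dim on CON replicates 2 and 3, with intensities of 125.3 to 136.8.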
